A study of Caenorhabditis elegans with 4 samples.

Results

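The regions described here are the stretches of the X chromosome at which RNA polymerase II was called as bound in whole third-stage (L3) larvae of the nematode Caenorhabditis elegans. All rows on X were taken from 3 deposited peak lists, 1 called on the merged reads of both ChIP samples (the combined list) and 1 called on each ChIP sample (replicates 1 and 2). Rows that overlapped by 1 bp or more were joined into a region. This gave 371 peaks on X (combined 149, replicate 1 102, replicate 2 120) of 4043 peaks in the 3 lists. They formed 172 regions, of 1922 regions in the whole series and 915 on chromosomes II to V, which serve as the background. Chromosome I was not analysed here.

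Polymerase II was precipitated with the antibody 8WG16 in 2 ChIP samples, and DNA of the same kind of lysate was kept as input in 2 further samples. All 4 samples were hermaphrodites of strain OP54 at the L3 stage, grown at 20 degrees Celsius. All of them carried the unc-119(ed3) mutation of chromosome III together with wgIs54, a transgene brought in by bombardment that holds unc-119(+) and a tagged egl-5 gene, egl-5::TY1::EGFP::3xFLAG. The egl-5 gene encodes a Hox transcription factor, and the strain was built to map its binding. No untagged strain, other stage or male was compared, and whole animals mix every tissue, so a region says nothing of the cells it comes from. Separate cultures for the 2 replicates are not stated in the labels, so the spread between them may be technical.

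8WG16 binds the repeated carboxy-terminal tail of AMA-1, the largest subunit of polymerase II, and favours repeats that carry no phosphate. Hermaphrodites have a pair of X chromosomes and males a single one, and in the somatic cells of hermaphrodites a condensin-containing dosage compensation complex binds both X chromosomes and lowers their transcription. In the germ line the X chromosome is largely silent for much of development, and genes with germ-line functions are scarce on it. The autosomes of this species have gene-dense centres and sparser arms, whereas genes are spread more evenly along X.

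The ChIP samples had 1959480 (replicate 1) and 2364309 (replicate 2) uniquely mapped reads, against 1861526 in the merged input that served as control for every list. Replicate 2 was thus 1.21 times as deep as replicate 1. The strength of a peak is given here as −log10 of the authors' q-value (strength for short), which grows with depth as well as with enrichment and is no measure of the amount of polymerase. The weakest peak in any list had a q of 0.00999, so strengths start just above 2. The lists may lack their strongest peaks. The 4 smallest q-values of the combined list become short decimals when multiplied by the numbers 50 to 53 in order, and the 3 smallest of replicate 2 when multiplied by 30 to 32, as p-values divided by their ranks would. No other run of consecutive numbers up to 200 did this in these lists, and none did in replicate 1. Read as ranks, these numbers leave 49 places before the first combined peak and 29 before the first replicate 2 peak, over all chromosomes, with no row in the data used here. A region without a combined or replicate 2 peak can therefore not be read as a place where that list's calling found nothing, and the strongest region in the lists need not be the strongest that was called. Regions are not replicates of anything and the 2 ChIP samples are of 1 condition, so no test was run; differences between X and chromosomes II to V are given side by side and were not tested. Intervals on shares are exact (Clopper-Pearson) 95% intervals and cover counting error only.

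Polymerase II regions were sparser on X than on chromosomes II to V as a whole, and somewhat wider once the lists were merged. X held 9.73 regions per Mb of its 17.67 Mb span, measured from the first base to the end of the last peak, against 13.6 per Mb on II to V, where the chromosomes ran between 10.1 (V) and 16.7 (III). Replicate 1 had 5.77 peaks per Mb on X and 7.64 on II to V, and replicate 2 had 6.79 on X and 8.90 on II to V. The ratio of X to II to V was therefore 0.760 ± 0.00509 (SD, n = 2 replicate lists), far closer between the replicates than their own peak densities were. Each ratio was taken within 1 list, and both lists share the merged input. This SD is therefore no measure of how precisely the ratio is known. For the merged regions the ratio was 0.716, with a far wider interval of 0.605 to 0.844. This interval comes from the exact binomial split of regions between X and II to V, and treats regions as independent. Counts per 1 Mb had a variance of 2.65 times their mean on X and 5.62 times on II to V. The interval is therefore too narrow and is no test of the difference. X did not stand apart from all 4 chromosomes in peak density: chromosome V had 6.14 peaks per Mb in replicate 1, above X, and 6.57 in replicate 2, below X.

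Regions covered 536 kb of X, which is 3.04% of its span, against 3.62% on II to V (2.95% on V to 4.32% on III). In the replicate lists the covered share of X was 1.79 ± 0.139% (SD, n = 2), against 2.24 ± 0.272% on II to V. The gap between X and the background was thus smaller in bases than in regions. In the replicate lists X likewise had 0.829 (replicate 1) and 0.779 (replicate 2) times the covered share of II to V. The same ratios in peaks per Mb were 0.756 and 0.763. The median X region spanned 2629 bp (quartiles 1299.75 and 4394.25 bp) and the median region of II to V 2032 bp (between 1731 bp on II and 2284.5 bp on V). The difference in median width did not hold in both replicates. Median peaks were 2535.5 bp on X and 2185.5 bp on II to V in replicate 1. In replicate 2 they were 2226.5 bp on X and 2319 bp on II to V. The ratio of the medians, 1.06 ± 0.141 (SD, n = 2), did not differ from 1 by more than the replicate spread.

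The peaks of X were about as strong as those of the background. Their median strength was 7.33 in replicate 1 and 9.43 in replicate 2, against 6.95 and 8.37 on II to V. Peaks with a q under 1e-50 made up 14.4 ± 0.901% of X peaks and 13.5 ± 1.47% of II to V peaks (SD, n = 2 replicate lists). Within each list the share was slightly higher on X, at 13.7% against 12.5% in replicate 1 and 15.0% against 14.5% in replicate 2. This difference was not tested.

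Along X the regions were spread over its whole length, with 1 crowded megabase. In 1 Mb windows numbered from the left end, the 17 full windows held a median of 9 regions, and none was empty. Counts from the first window to the last were 1, 5, 11, 6, 13, 8, 23, 11, 8, 3, 10, 16, 9, 11, 9, 7, 10 and, in the shorter last window, 11. Window 7, between 6 and 7 Mb, held 23 regions or 13.4% of all on X, and window 12, between 11 and 12 Mb, held 16. A fullest window of this size was not particular to X. On the background chromosomes it held between 20 (V) and 38 (III) regions, which is 9.52% and 16.5% of their regions. The first window of X held a single region and window 10 held 3. The variance of the window counts was 2.65 times their mean on X, below the 3.50 (IV) to 7.46 (II) of the background chromosomes. This measure also depends on the mean count, which was lowest on X. It was 9.47 regions per full window on X, against 10.05 (V) to 16.3 (III) on the background chromosomes. The lower value on X need therefore not mean a more even spread.

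The crowding of window 7 was seen in replicate 2 and the combined list, not in replicate 1. That window had 7 peaks in replicate 1, 16 in replicate 2 and 20 in the combined list. Window 12 likewise had 6 peaks in replicate 1, 14 in replicate 2 and 15 in the combined list. Of the 23 regions of window 7 only 4 were in all 3 lists, 10 were in the combined list and replicate 2, and 5 were in the combined list alone. In 12 of the 17 full windows the replicates differed by at most 1 peak, and over these windows their counts had a Spearman correlation of 0.672, a description over windows that share their libraries. Replicate 1 ranged between 1 and 9 peaks per full window, without a crowded window of its own.

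**Figure D1:**
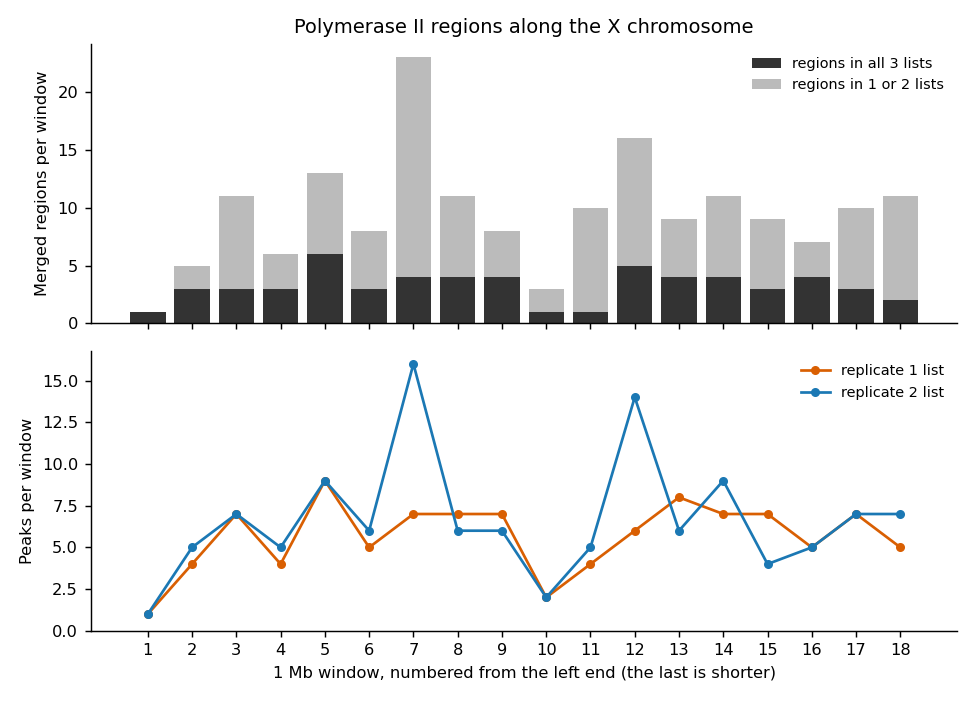
Upper plot: merged regions per 1 Mb window along X, dark for regions in all 3 lists and light for the rest. Lower plot: peaks per window in each replicate list; replicate 2 has 16 peaks in window 7 and 14 in window 12, where replicate 1 has 7 and 6.

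Split into 3 parts of equal length, X had 43 regions (25%, interval 18.7 to 32.2) in the left part, 69 (40.1%, 32.7 to 47.9) in the middle part and 60 (34.9%, 27.8 to 42.5) in the right part. On chromosomes II to V the middle part held between 41.2% (IV) and 50.5% (V) of regions. The excess in the middle of X was not seen among the regions with most support: of the 58 X regions in all 3 lists, 19 lay in the left part, 17 in the middle and 22 in the right. That is 29.3% (18.1 to 42.7) in the middle part, against 37.6% to 56.6% on II to V by the same count. The middle part held 30.4% of replicate 1 peaks and 39.2% of replicate 2 peaks on X. The median best strength of regions (that of the smallest q in any list) was 20.0 in the left part, 6.64 in the middle and 12.3 in the right.

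Across the lists, 58 of the 172 X regions (33.7%, interval 26.7 to 41.3) were found in all 3 lists, beside a background of 34.5% on II to V. A further 71 (41.3%) were in 2 lists, beside 34.3%, and 43 (25%) in a single list, beside 31.1%. Of those in 2 lists, 47 (27.3%, background 22.2%) had a combined and a replicate 2 peak, 22 (12.8%, background 10.8%) a combined and a replicate 1 peak, and 2 (1.16%, background 1.31%) a peak in both replicates but none in the combined list. Of those in a single list, 20 (11.6%, background 19.6%) were in the combined list, 18 (10.5%, background 7.32%) in replicate 1 and 5 (2.91%, background 4.26%) in replicate 2. The shares of X lay close to the background for regions in all 3 lists. The largest gap was in combined-only regions, whose interval on X, 7.25 to 17.4%, lay under the share of II to V as a whole but overlapped the single chromosomes, which ran between 14.4% (IV) and 24.9% (II). Each of these classes is a class of rows in the lists, and a region of replicate 1 alone may have had peaks in the ranks without a row.

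Peak by peak, 61 of 102 replicate 1 peaks on X (59.8%, interval 49.6 to 69.4; background 67.5%) overlapped a replicate 2 peak. In the other direction, 62 of 120 replicate 2 peaks (51.7%, 42.4 to 60.9; background 58.3%) overlapped a replicate 1 peak. The 172.572 kb that the replicates shared made up 57.6% of the bases in replicate 1 peaks and 51.6% of those in replicate 2 peaks. Overlap with the combined list was higher: 82 of 102 replicate 1 peaks (80.4%; background 84.4%) and 113 of 120 replicate 2 peaks (94.2%; background 91.5%) had a combined peak. Conversely, 80 of 149 combined peaks (53.7%; background 52.1%) overlapped replicate 1 and 107 (71.8%; background 65.3%) overlapped replicate 2. The combined list of X therefore resembled the deeper replicate more, as it did on the background chromosomes.

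Regions in all 3 lists were wider and stronger than most others. Regions in all 3 lists spanned a median of 4425.5 bp, with a median best strength of 33.7. Those in the combined list and replicate 2 had medians of 2325 bp and 7.24, and those in the combined list and replicate 1 of 1788.5 bp and 4.84. Combined-only regions were the narrowest and among the weakest, with a median of 291.5 bp and 2.64, and none was stronger than 6.54. Regions in replicate 1 alone had medians of 1598 bp and 4.03, and those in replicate 2 alone of 1312 bp and 2.63. The 2 regions in both replicates without a combined peak went against this order, with widths of 5008 and 7207 bp and best strengths of 227 and 230. The weakest region in all 3 lists had a best strength of 4.37.

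By best strength, 63 X regions lay between 2 and 5, 49 between 5 and 20, 28 between 20 and 50, 15 between 50 and 100, and 17 above 100. In this order, 1, 13, 21, 13 and 10 of them were in all 3 lists, and the share climbed to 86.7% (59.5 to 98.3) in the class between 50 and 100. In the strongest class it was 58.8% (32.9 to 81.6), since 7 of its 17 regions had no combined peak. On II to V the same classes had 1.12%, 35.9%, 70.0%, 85.5% and 74.4% in all 3 lists. Agreement between lists rose with strength on X up to a strength of 100 and was lower above it, in the order also seen on II to V. Of the 7 strongest-class regions on X without a combined peak, 2 were in both replicates and the others in replicate 1 alone. The lower share on X thus rests on rows absent from the replicate 2 list as well as from the combined list. The part of ranks without a row in it was not tested.

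Width rose with strength as well. Median X widths in the 5 classes were 1168, 2897, 4155.5, 5213 and 5317 bp, against 720.5, 2291, 3606, 4432.5 and 4854.5 bp on II to V. Each class was wider on X than in the background, though the replicate lists did not share the direction of the overall difference in median width, as given above. Over all regions, width and best strength had a Spearman correlation of 0.696 on X and 0.664 on II to V, as a description over regions of the same libraries. A few wide regions made up much of the covered bases: 41 of 172 regions held 50.5% of them, the 10 widest 18.4%, and the 35 regions narrower than 1 kb together 2.91%.

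**Figure D2:**
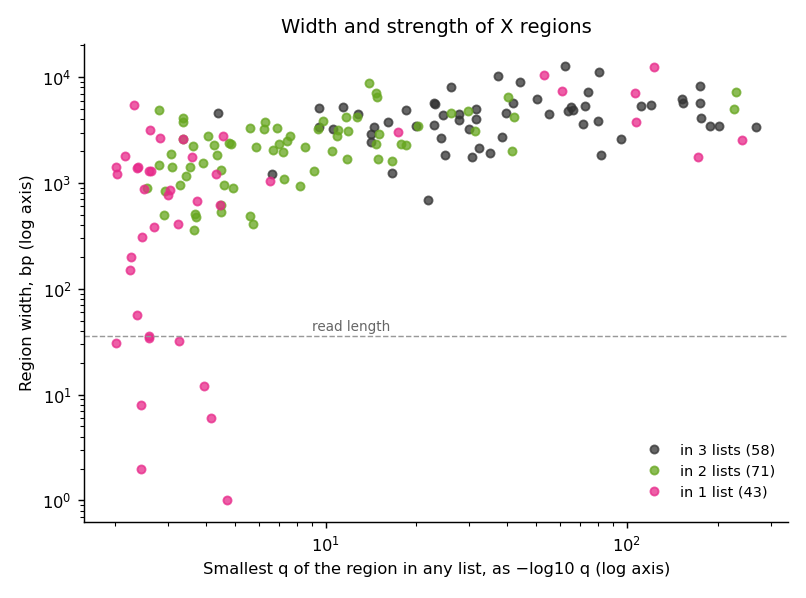
Width of each of the 172 X regions against its best strength, on log axes, coloured by the number of lists that hold it; the dashed line marks the read length of 36 bp. Regions in 3 lists lie at the upper right, and all 8 regions below the line are in 1 list.

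The strongest region of X lay at X:13143048-13146421 (WS220), 3374 bp wide, with a combined q of 6.35e-270, a replicate 1 q of 1.4e-135 and a replicate 2 q of 1.11e-176. It was 1 of 6 among the 10 strongest that all 3 lists held. The others of this kind were X:13348341-13351826 (combined strength 203, replicate 1 59.6, replicate 2 142), X:4969107-4972528 (188, 21.0 and 168), X:14789510-14793621 (176, 75.5 and 104), X:2968063-2973822 (174, 35.4 and 139) and X:15075282-15083495 (174, 72.3 and 134), values in the same order of lists. In each of these 6 the combined list gave the smallest q and replicate 2 a smaller q than replicate 1.

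The other 4 of the 10 strongest were missing from the combined list. X:17419381-17421943 was called in replicate 1 alone, with a q of 3.61e-241. X:1503358-1505122 was also called in replicate 1 alone, with a q of 3.17e-173. X:6250086-6257292 had a q of 1.45e-132 in replicate 1 and 1e-230 in replicate 2. X:16939979-16944986 had a q of 1.8e-227 in replicate 1 and 1.49e-97 in replicate 2. The last pair were called with great strength in each replicate, yet the list made from the merged reads has no row touching them. Whether they are among the 49 places before the first combined row was not tested.

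Altogether 26 X regions had a q under 1e-50 in a replicate, and 9 of them (34.6%, interval 17.2 to 55.7) had no combined peak, beside a background of 20% on II to V. The background chromosomes ran between 7.69% (IV) and 36.1% (V), so X lay within their range. This is a share of rows lacking in the combined list, not of regions at which the merged reads failed to give a peak. Besides the 4 regions above, these were X:4136603-4149189 (replicate 1 strength 123), X:13541226-13545035 (107), X:3111310-3118328 (106), X:12661731-12669142 (60.9) and X:6735562-6745943 (53.0), each in replicate 1 alone. None of the 9 was in replicate 2 alone. The share depended on the replicate: 9 of 14 such regions (64.3%) lacked a combined peak when the combined list and replicate 1 were used without replicate 2, and 2 of 18 (11.1%) without replicate 1. Their median width, 7019 bp, was above the 5339 bp of the strong regions with a combined peak.

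The 18 regions in replicate 1 alone thus fell into separate groups by strength. The 7 strong ones ran between 53.0 and 240, the other 11 between 2.30 and 4.57, and none lay between. On II to V, 13 of the 67 regions in replicate 1 alone had a q under 1e-50. The 5 X regions in replicate 2 alone were weak, between 2.59 and 2.99, except X:6747680-6750692, which had a strength of 17.4. It lay 1736 bp to the right of the wide replicate 1 region X:6735562-6745943. Within 10 kb of a peak of another list lay 6 of the 18 replicate 1 regions, 2 of the 5 replicate 2 regions and 7 of the 20 combined-only regions. Over all X regions, 67 of 172 (39.0%) had a neighbouring region of any list within 10 kb, so single-list regions did not stand apart in this.

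The widest X region, X:8014458-8027298, spanned 12841 bp and was in all 3 lists, with a combined strength of 55.0, a replicate 1 strength of 9.55 and a replicate 2 strength of 62.4. The second widest, X:4136603-4149189 at 12587 bp, was in replicate 1 alone. X:5112073-5123385 (11313 bp) and X:15603950-15614115 (10166 bp) were in all 3 lists, and X:6735562-6745943 (10382 bp) was in replicate 1 alone. X:11468429-11477363 (8935 bp, all 3 lists) and X:11477619-11486346 (8728 bp, combined list and replicate 2) stood only 255 bp apart. The remaining wide regions were X:15075282-15083495 (8214 bp), X:14815276-14823439 (8164 bp) and X:12661731-12669142 (7412 bp, replicate 1 alone). Of the 10 widest, 3 thus had a row in replicate 1 only. As the other lists may lack rows, this cannot be read as disagreement between the lists.

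At the other end, 8 regions were narrower than a 36 bp read, between 1 and 34 bp, 6 of them in the combined list alone and 2 in replicate 1 alone. Their strengths ran between 2.01 and 4.69. X:11565252-11565252, a single base in the combined list, was the strongest of them (chosen here after its value was seen). Removing them left 164 regions on X. Of the 915 regions on II to V, 30 in a single list and 2 in 2 lists were narrower than 36 bp. The very last region of X, X:17670711-17670722 at 12 bp, was also of this kind, so the end of the span rests on it.

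Both replicates had a peak in 60 X regions, and the order of their strengths matched only in part. The Spearman correlation of strength between replicates was 0.411 on X and 0.595 on II to V, as a description over regions. Median strength in these regions was 23.1 in replicate 2 and 10.1 in replicate 1. Replicate 2 had the smaller q in 44 of 60 (73.3%, interval 60.3 to 83.9; 68.0% on II to V). Its greater depth moved in the same direction; the part of depth in this was not tested.

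Among regions in all 3 lists, the 5 with the largest gaps between replicates were stronger in replicate 2. Over all 60 regions the third largest gap ran the other way, at X:16939979-16944986, where the strength was 227 in replicate 1 and 96.8 in replicate 2. X:4969107-4972528 had a q of 9.65e-22 in replicate 1 and 3.41e-169 in replicate 2. X:11965523-11971758 had 4.68e-07 and 1.64e-152, X:9342672-9348139 had 2.89e-06 and 1.46e-120, and X:13103874-13109190 had 0.000239 and 6.76e-112, replicate 1 given before replicate 2 in each. The fifth was X:2968063-2973822, with 3.94e-36 in replicate 1 and 8.85e-140 in replicate 2. In replicate 1 the fourth of these would rank among the weak calls, whereas in replicate 2 it was among the strongest on the chromosome.

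Peaks in these regions spanned medians of 3477 bp (replicate 2) and 3165.5 bp (replicate 1). The median distance between replicates was 141 bp for the start and 198 bp for the end of a region on X, against 104.5 and 100 bp on II to V. Both edges were within 100 bp in 8 of 60 regions on X and 86 of 328 on II to V. At least 1 edge was over 1 kb apart in 19 of 60 regions on X and 76 of 328 on II to V, a larger share on X. The largest distance on X was 5016 bp. Among the 58 regions in all 3 lists, the combined q was smaller than both replicate values in 47, between them in 10 and larger than both in 1.

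**Figure D3:**
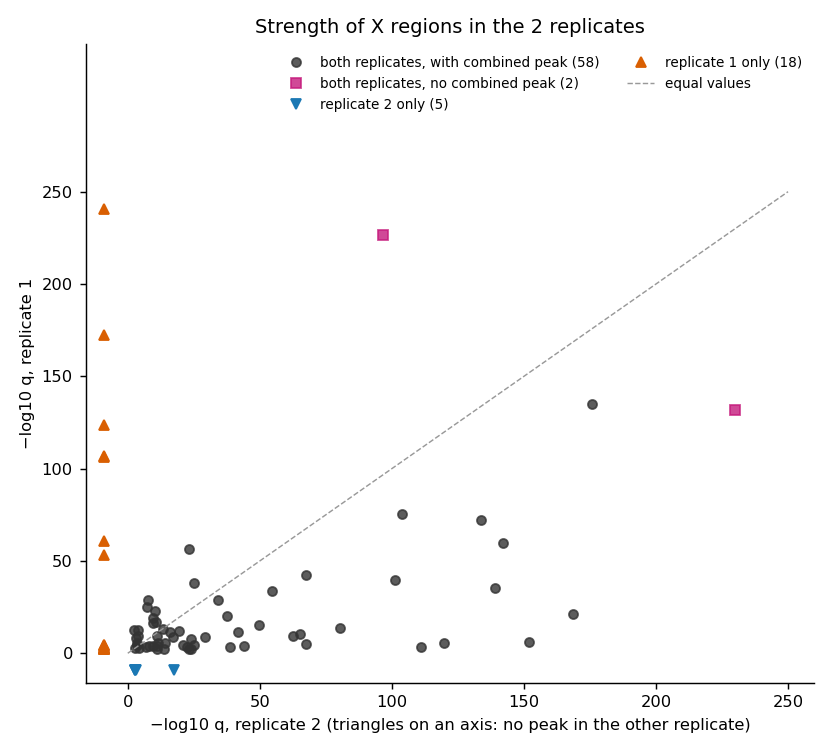
Strength of X regions in replicate 1 against replicate 2 for the 60 regions with a peak in both, with regions called in a single replicate and in no other list set outside the axes' zero. Most points lie below the line of equal values, and the 2 squares and the 7 upper triangles are the strong regions with no combined peak.

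Neighbouring regions on X stood farther apart than on chromosomes II to V. The median peak-free stretch between neighbours was 61895 bp on X and 35244 bp on II to V, where it ran between 25455 bp (III) and 48484 bp (V). The shortest was 214 bp, and 17 of the 171 stretches on X were under 1 kb. At the long end, 23 stretches (13.5%) exceeded 200 kb, against 8.67% on II to V (6.25% on II to 12.9% on V). These 23 summed to 7.21 Mb, or 40.8% of the span of X. The longest single stretch was 605487 bp on X, within the range of the background chromosomes, 543539 bp (III) to 978005 bp (II).

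The longest stretches lay toward both ends of X. The longest ran over X:1505123-2110609 (605487 bp), starting at the right edge of the replicate 1 region X:1503358-1505122. The fourth, X:1013392-1443040 (429649 bp), lay just to its left. Before the first region, X:860982-864760, no peak was called in 860981 bp. On the right, X:15614116-16123509 (509394 bp) and X:16127761-16611226 (483466 bp) were parted only by a cluster of 3 small regions, and X:14044615-14423333 (378719 bp) was the fifth. These 5 stretches made up 13.6% of the span.

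The small cluster between the 2 long stretches on the right spanned X:16123510-16127760 (chosen here for its place). Its regions were 361 bp (combined list and replicate 1), 8 bp (replicate 1) and 875 bp (combined list), with best strengths of 3.66, 2.43 and 2.49. With peaks of q up to 1e-05 only, the cluster was lost and a single stretch of 997 kb, X:15614116-16611226, was the longest on X. Replicate 2 alone had its longest stretch there too, X:15611498-16611284 (999787 bp), while in replicate 1 alone it was X:9586765-10567412 (980648 bp). The stretch that led in the merged regions thus gave way to others in both replicate lists.

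**Figure D4:**
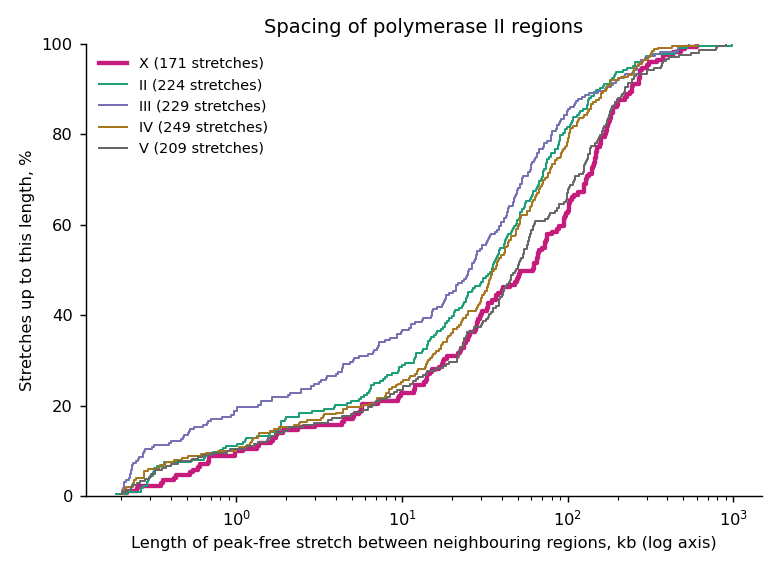
Share of peak-free stretches up to a given length, in kb on a log axis, for X (thick line) and chromosomes II, III, IV and V. X and V run to the right of the others over most of the range, with a median of 61.9 kb on X.

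Of the 172 X regions, 67 (39.0%, interval 31.6 to 46.7) had a neighbour within 10 kb, against 48.3% on II to V (41.0% on V to 57.0% on III). They formed 28 clusters, 19 of 2 regions, 7 of 3 and 2 of 4, and the other 105 regions were single. Clustered and single regions hardly differed in width, with medians of 2592 and 2676 bp, or in strength, with medians of 9.48 and 10.9. Of the clustered regions 21 of 67 (31.3%) were in all 3 lists, and of the single ones 37 of 105 (35.2%).

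Both clusters of 4 lay in window 7. The first, X:6232118-6257292, was 25175 bp long, of which regions covered 63.9%. From left to right it held 4249 bp (combined list and replicate 2, best strength 42.0), 1421 bp (the same lists, 3.53), 3214 bp (all 3 lists, 29.8) and 7207 bp (both replicates without the combined list, 230). The second, X:6725132-6750692, was 25561 bp long, and regions covered 64.5% of it. It held 508 bp (combined list and replicate 1, 3.69), 2584 bp (combined list, 3.37), 10382 bp (replicate 1, 53.0) and 3013 bp (replicate 2, 17.4). None of the regions of this second cluster was found in all 3 lists, and 3 of the 4 came from a single list each.

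**Figure D5:**
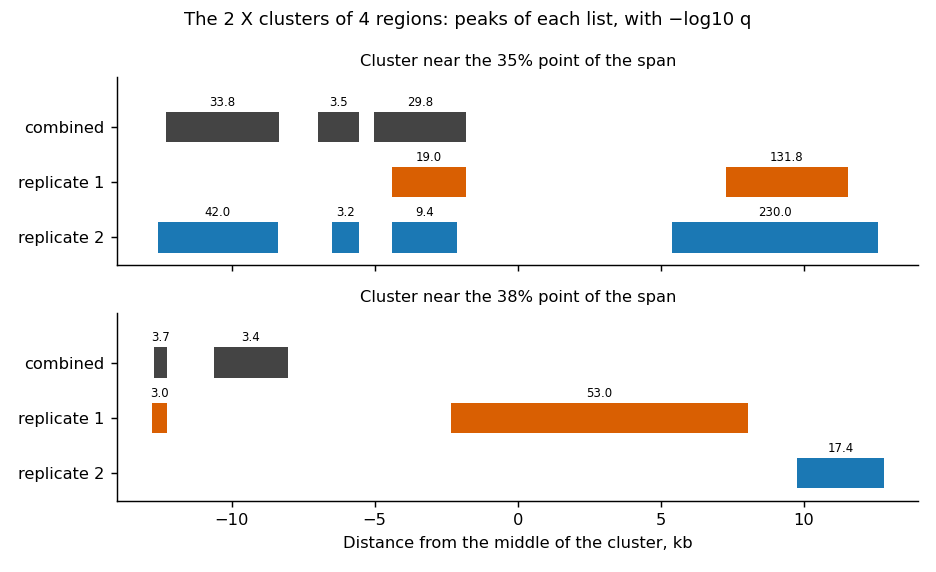
The peaks of each list in the X clusters of 4 regions, drawn to scale by distance from the cluster's middle in kb, with the strength printed over each peak. The strongest peaks of both clusters, 131.8 and 230.0 above and 53.0 below, have no counterpart in the combined row.

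The first 3 clusters of 3 regions along X were unlike each other. X:4960227-4982672, 22446 bp long, held a pair of strong regions in all 3 lists (best strengths 55.2 and 188) and a weak one of 626 bp. X:6198538-6203820, 5283 bp long, held regions of 2312, 946 and 1080 bp, each in the combined list and replicate 2, with best strengths of 4.85, 8.18 and 7.24. X:6661275-6663236, 1962 bp long, held regions of 383, 957 and 57 bp with best strengths of 2.70, 4.58 and 2.37. Both of the smaller clusters lay in window 7 as well, and none of their 6 regions was called in replicate 1.

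Counts of regions depend on how close neighbours are joined. Bridging the 17 gaps under 1 kb left 155 regions on X, and bridging gaps up to 5 kb left 143. In 9 regions a list had more than 1 peak within the merged stretch. The deposited files mark 1 region of X as altered when coordinates were carried over from an earlier build. Its combined peak, X:7985449-7990162, spans 4714 bp, with 4713 bp before, and its replicate 1 peak, X:7985419-7990059, spans 4641 bp, with 4640 bp before. Each changed by a single base.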

How the data were processed

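Sonicated chromatin of crosslinked L3 hermaphrodites was sequenced as 36 bp reads from 2 ChIP and 2 input samples. The authors' read counts, total and uniquely mapped, stand per run in the deposited sample table and were summed here per sample. ELAND is named for alignment and PeakSeq for peak calling, per the file headers and the deposited tables, while their versions are not given in the sources used. The authors' value per peak is a q-value from PeakSeq, with the pooled input reads as control, in WormBase WS220 coordinates per the file headers. Peaks were called on ChIP samples only.

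From these, rows of the 3 lists that overlapped by 1 bp or more were merged, and widths, gaps, 1 Mb windows, 3 equal parts of the span, clusters (gaps up to 10 kb) and overlaps were computed (Python 3.11.15, NumPy 2.4.6, SciPy 1.17.1). A region's strength in a list is that of its smallest q, and −log10 q was computed here. The smallest q-values of each list were multiplied by consecutive whole numbers up to 200 to find runs of products with at most 5 digits, a check added with the data seen. The span runs from base 1 to the last peak base; chromosome lengths were not used here. The merging and overlap code was tested on simulated peaks.

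Positions named were, on X, the 10 regions of smallest q, the 10 widest, the 5 longest inner stretches, the 5 clusters with most regions (ties by position), all regions with a replicate q under 1e-50 and no combined peak, and the 5 largest replicate differences among regions in all 3 lists. The first and last regions, the single-base peak, the cluster between long stretches, the longest stretches of other lists and the altered peaks were picked with their values already seen. The members and these lists were chosen with earlier results of these data known. Genes and sequences at the regions were not analysed here, as no annotation or genome of the same build was used. Alternatives were other joining distances, a q of up to 1e-05, a width of at least 36 bp, single lists, other cluster distances and leaving out each replicate.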

Additional observations from a re-analysis of the deposited data

How the results depend on the processing

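Of 60 alternative values, 45 stayed near the value given and 15 moved further. Near meant within a fixed factor for the number of X regions, a looser rule, and within the replicate or counting spread for every other result. With peaks of q up to 1e-05 only, X had 109 regions of median width 3495 bp, 31.2% had a neighbour within 10 kb, and the longest peak-free stretch was 997 kb. Joining rows up to 5 kb apart gave a median width of 3143 bp, and the replicate 2 list alone gave 2226.5 bp. A neighbour was found within 5 kb for 29.7% of regions, within 20 kb for 50.6% and within 50 kb for 69.2%. Among regions in all 3 lists the left part of X held 32.8% and the middle part 29.3%. The combined list alone had a longest stretch of 622 kb. Leaving out each replicate in turn gave a longest stretch of 605 to 622 kb, and 11.1% (without replicate 1) to 64.3% (without replicate 2) of strong replicate regions without a combined peak. The cause was not tested in any of these, beyond the construction of the alternatives. X kept a lower density than II to V under all 7 alternatives tried, at 0.689 to 0.764 times theirs in regions and 0.839 times in covered bases. No paired analysis was possible because peaks were called for ChIP samples only and no result comes from a test. A region without a row in a list may be one that was not called at this depth or one whose row is not among the data used here, and these cannot be told apart region by region. Comparing a list made from merged reads with its own parts is no independent replication.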
